A study of Danio rerio with 6 samples.

Results

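The genes described here are the members of developmental transcription factor families that the study's own fold tables list in whole zebrafish embryos. They were chosen by name: a probe set belongs if one of the 3 deposited comparison tables lists it with 1 gene whose current symbol starts with 1 of 18 family names. This gave 40 probe sets of 36 genes, out of 2152 genes named alone by a listed probe set, 3139 listed probe sets and 15502 probe sets on the array besides controls. The 12 families with a member were hox, pax, sox, fox, nkx, irx, lhx, pou, tbx, gata, klf and msx. The other 6 (dlx, otx, zic, meis, hand and the sine oculis homeobox genes) had none. Of the members, 2 start with a family name but belong to other protein families. gatad2ab encodes a protein of a chromatin remodelling complex that has a GATA-type zinc finger, and TBXAS1 encodes thromboxane synthase, an enzyme. The other 38 probe sets belong to 34 transcription factor genes.

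Transcription factors of these families bind DNA through conserved domains, such as the homeodomain of the hox, lhx, msx and nkx proteins, the paired domain of the pax proteins, the HMG box of the sox proteins and the forkhead domain of the fox proteins. In vertebrate embryos they mark positions and tissues: hox genes are expressed in nested domains along the body axis, pax and lhx genes in regions of the brain, sense organs and kidney, msx and foxd3 in neural crest and dorsal neural tube, and gata1a in red blood cell precursors. Many are expressed most strongly while a tissue is being laid down and less so once its cells have matured.

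The embryos were at 72 h after fertilization on 6 Affymetrix arrays, 2 for each of 3 groups. ERbeta2 MO embryos carried a morpholino (a synthetic antisense oligonucleotide) against translation of the estrogen receptor ERbeta2, coMO embryos a standard control morpholino, both injected at 50 uM up to the 4-cell stage, and uninjected embryos received none. Eggs were pooled from several aquaria, no strain or genotype is named, and the labels call the replicates biological but do not name the spawnings behind them. A p-value here measures only the spread between these samples, which may be technical. Per its title the study concerns the neuromast, a sense organ of the fish lateral line. A morpholino against translation leaves the mRNA in place, and the ERbeta2 transcript was not analysed here.

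The values are MAS5 signals, a measure of brightness that the authors scaled to the same trimmed mean on every array. Differences are given as log2 differences of group means of log2(signal + 16), which understate the change of dim probe sets, and levels of different probe sets are not compared. The ERbeta2 MO arrays stood apart from the other 4 across all probe sets: they correlated with the control arrays at r = 0.900 to 0.908, and the coMO with the uninjected arrays at 0.971 to 0.979. The ratio of 3' to 5' signal depends on how intact the RNA was and how far labelling ran along it. For the GAPDH control it came to 2.14 and 2.15 on the ERbeta2 MO arrays and 1.34 to 1.66 on the others. For the acta1 control it was 13.6 and 11.6 on the ERbeta2 MO arrays and 5.41 to 10 on the others. Markers of several tissues moved with the same groups, as far as the tables list them, so these too were picked by the authors' folds. The summed signal of 8 photoreceptor probe sets (7 of 7 genes), all 8 lower against both controls by limma, was 561 and 578 in ERbeta2 MO and 72780 to 94063 in the other groups, and that of 4 exocrine pancreas probe sets (4 of 5 genes), all 4 lower, was 371 and 399 against 20594 to 24187. Of 5 neuronal probe sets (4 of 4 genes) 4 were lower and elavl3 higher, with a sum of 7381 and 7511 against 13605 to 14624. All 5 red blood cell probe sets (5 of 5 genes) were higher, with a sum of 41673 and 42613 against 17277 to 20695. Most of that sum was hbbe1.1, at 29763 and 29595 against 14036 to 17322. Another, hbbe3, was dim in the controls, at 14.4 to 43.3, and read 4445 and 5168 in ERbeta2 MO. The 1 listed muscle marker of 5, ttn.2, was higher as well, at 16475 and 18016 against 5638 to 6621. Of all probe sets tested limma called 29.5% higher and 26.8% lower against coMO, and 30.4% and 26.5% against uninjected embryos. None of these probe sets had a signal of 0 on any array. In whole embryos fewer cells of a type and less RNA per cell cannot be told apart, and the part of these markers and of the RNA ratios in the differences below was not tested.

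The members were chosen by the authors' folds between these same groups, so their differences between ERbeta2 MO and either control are a description and carry no test. Of the 40 probe sets 34 had higher signals in ERbeta2 MO than in coMO embryos and the same 34 than in uninjected embryos, and 6 were lower in both. Median log2 differences were 0.86 against coMO and 0.88 against uninjected embryos. All 15502 probe sets besides controls had medians of -0.12 and -0.09, and the 9301 probe sets tested 0.05 and 0.05. Of the 3125 listed probe sets besides controls, which entered by the same 2-fold limit, 50.4% lay above 0 against coMO and 50.2% against uninjected embryos, and of the members 85% in each. Both ERbeta2 MO arrays lay above all 4 control arrays for 32 members and below all 4 for 6. The 2 remaining, hoxa11b and hoxa3a, overlapped with the controls. Of the 30 members among the probe sets tested, 25 lay above and 4 below, and of all probe sets tested 37.2% and 32.4%.

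**Figure D1:**
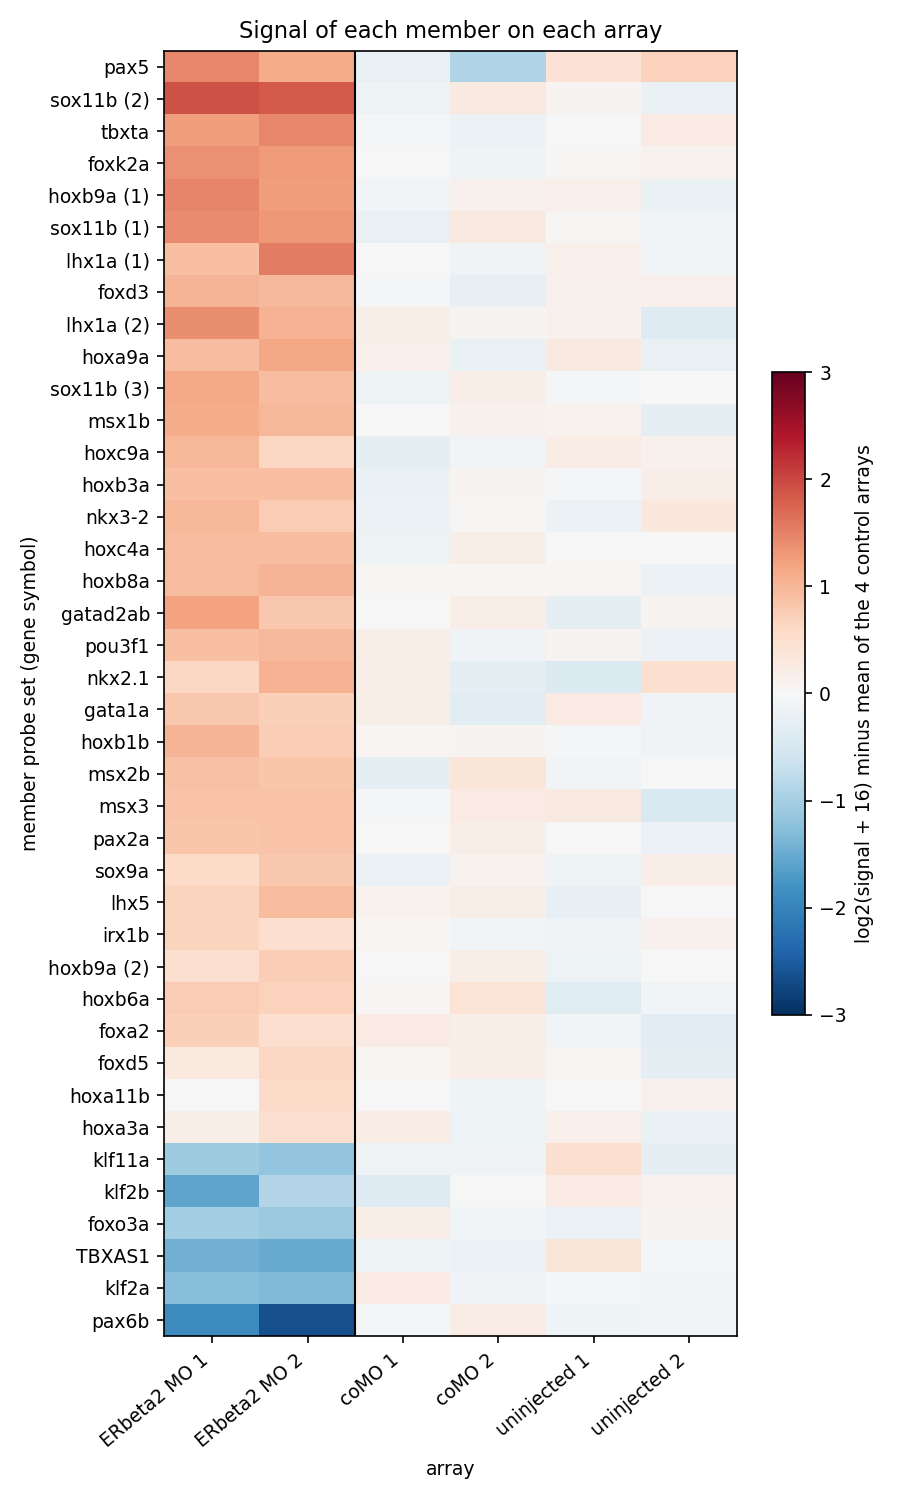
Each row is 1 of the 40 member probe sets, ordered by the difference between ERbeta2 MO and coMO, and each column 1 array; the colour is log2(signal + 16) minus the mean of the 4 control arrays, red above and blue below. Both columns of ERbeta2 MO arrays are above 0 in 33 rows and below 0 in the lowest 6, hoxa11b has 1 array on each side, and the control columns stay pale except for pax5.

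A filter on the dimmest 40% of probe sets was passed by 30 of the 40. Those passed through a mean over all arrays, and the 10 below it were foxd5, gata1a, hoxa3a, hoxa9a, hoxb6a, nkx2.1, pax5, pax6b, sox9a and TBXAS1. In the limma fit across all probe sets 24 of the 30 were called higher than in coMO at an adjusted p of 0.05, against a background of 29.5%, and 4 lower, against 26.8%. Against uninjected embryos 25 were called higher (background 30.4%) and 4 lower (26.5%). Since the tables that chose the members hold the same contrasts, nothing is read from these shares.

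The hox genes, which set positional identity from hindbrain to tail, were the largest family, with 11 probe sets of 10 genes. The RefSeq annotation names 49 hox genes, and those outside these 10 are not described here. All 11 member probe sets had higher mean signals in ERbeta2 MO embryos than in either control. Their median log2 difference was 0.92 against coMO and 0.94 against uninjected embryos. Both ERbeta2 MO arrays lay above all 4 control arrays for 9 of the 11. Only 8 of the 11 were among the 9301 probe sets tested. Of all 9301, 37.2% lay above, and nothing is read from this share either. The trunk gene hoxb9a had the largest difference of the family: its brighter probe set read 769 and 654 in ERbeta2 MO, 251 and 294 in coMO and 297 and 232 in uninjected embryos, a log2 difference of 1.33 against coMO and 1.38 against uninjected. The groups were well apart, since the lower ERbeta2 MO array was more than double the highest control. A second hoxb9a probe set read 214 and 253 in ERbeta2 MO, 146 and 168 in coMO and 129 and 145 in uninjected embryos, with smaller log2 differences of 0.52 and 0.70. Its direction was the same and its groups did not overlap, but the 2 probe sets of this gene differed by 0.81 in the size of the difference against coMO.

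The other members of paralogue group 9, hoxa9a and hoxc9a, which belong to the trunk as well, also had higher signals. hoxa9a stood at 178 and 214 in ERbeta2 MO, 97.4 and 73.8 in coMO and 108 and 72.1 in uninjected embryos, a log2 difference of 1.07 and 1.02. hoxc9a stood at 432 and 330 in ERbeta2 MO, 172 and 198 in coMO and 248 and 231 in uninjected embryos, a log2 difference of 0.97 against coMO and 0.62 against uninjected. Both genes were apart from all controls. hoxb8a, a trunk gene of the next lower paralogue group, read 1069 and 1131 in ERbeta2 MO, 568 and 577 in coMO and 574 and 488 in uninjected embryos (log2 0.92 and 1.03).

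Genes of the hindbrain and the anterior trunk were higher too. hoxb1b, a gene of hindbrain segmentation, read 494 and 401 in ERbeta2 MO, 243 and 251 in coMO and 227 and 218 in uninjected embryos (log2 0.81 and 0.95). hoxb3a read 2150 and 2141, 988 and 1197, and 1088 and 1299 in the same order of groups (0.97 and 0.84), so its ERbeta2 MO replicates differed less than either pair of controls. hoxc4a read 466 and 457 in ERbeta2 MO, 207 and 263 in coMO and 230 and 234 in uninjected embryos (0.94 and 0.95). None of these overlapped with the controls. hoxb6a, a trunk gene below the filter, read 188 and 178 in ERbeta2 MO, 108 and 145 in coMO and 77.4 and 98.4 in uninjected embryos. Its coMO arrays lay between the other groups, and its log2 difference was 0.49 against coMO and 0.95 against uninjected. Without the first coMO array the former became 0.31.

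The 2 hox genes that overlapped were also those with the smallest differences. hoxa11b, which is expressed in the developing fins, read 177 and 274 in ERbeta2 MO, 180 and 163 in coMO and 176 and 197 in uninjected embryos. Only the second ERbeta2 MO array lay above all controls. Without the first ERbeta2 MO array the log2 differences were 0.63 and 0.52, and without the second the difference went from 0.34 to 0.05 against coMO and from 0.22 to -0.07 against uninjected embryos. hoxa3a, a gene of the hindbrain and pharyngeal arches, read 123 and 156 in ERbeta2 MO, 127 and 93.9 in coMO and 120 and 91.5 in uninjected embryos. Its log2 difference against coMO, 0.31, became 0.15 without the second ERbeta2 MO array, 0.50 without the first coMO array and 0.12 without the second. Against uninjected embryos its 0.36 became 0.20 without the second ERbeta2 MO array and 0.19 without the second uninjected array.

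By position, the 10 hox genes came from 5 of the hox clusters, as their symbols give them. The hoxba cluster held 4 of them (hoxb3a, hoxb6a, hoxb8a and hoxb9a), the hoxaa cluster hoxa3a and hoxa9a, the hoxca cluster hoxc4a and hoxc9a, and hoxab and hoxbb 1 each. The size of the difference did not follow the paralogue number in these few genes: groups 3 and 9 each held a larger and a smaller value.

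**Figure D2:**
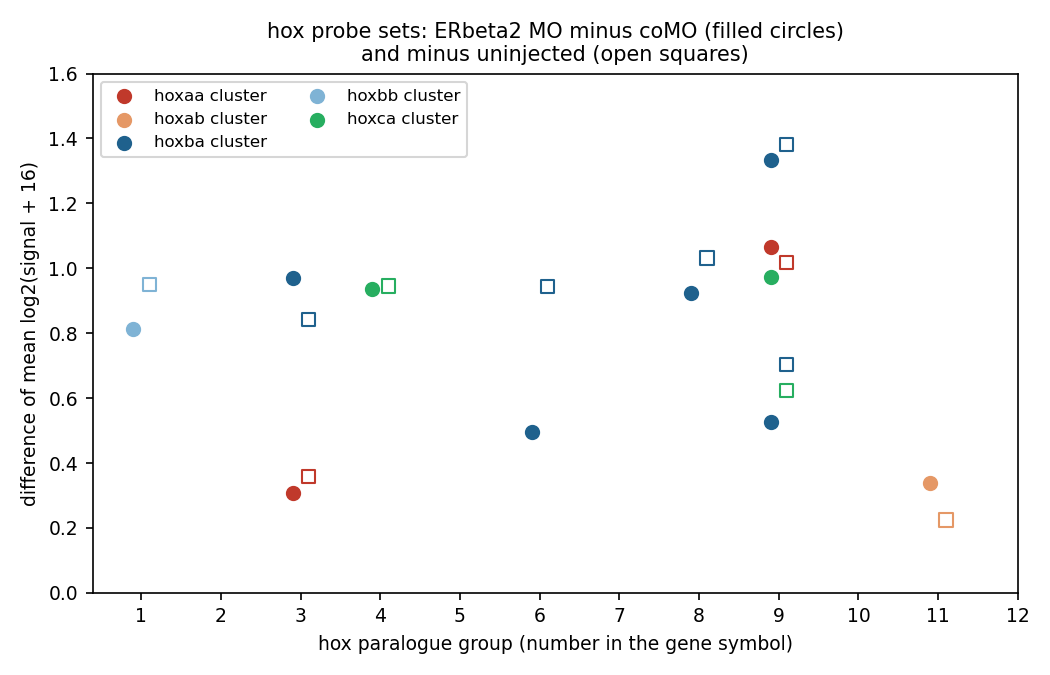
The x axis is the paralogue number in the hox gene symbol and the y axis the difference of mean log2(signal + 16), for ERbeta2 MO minus coMO (filled circles) and minus uninjected (open squares), coloured by cluster. All 22 values lie above 0, with group 3 between 0.31 and 0.97, group 9 between 0.52 and 1.38 and hoxa11b at 0.34 and 0.22.

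tbxta, the zebrafish brachyury gene (no tail) of notochord and tail mesoderm, was the only T-box transcription factor among the members. Its signal was 421 and 483 in ERbeta2 MO, 162 and 146 in coMO and 169 and 201 in uninjected embryos. The ERbeta2 MO arrays were far above both controls, at log2 differences of 1.46 and 1.22.

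The largest difference among the members past the filter was that of sox11b, a SoxC gene of neural progenitors and young neurons, seen with 3 probe sets. The second read 1843 and 1741 in ERbeta2 MO, 425 and 581 in coMO and 505 and 411 in uninjected embryos, log2 differences of 1.82 and 1.94. The first read 1389 and 1283, 441 and 622, and 522 and 484 in that order (1.32 and 1.38). The third read 701 and 602, 278 and 362, and 304 and 307 (1.00 and 1.05). All 3 placed both ERbeta2 MO arrays above every control, as did 37.2% of all probe sets tested. Between coMO and uninjected embryos the 3 probe sets differed by 0.05 to 0.12. They share their gene and so are no independent measures. sox9a, a gene of cartilage formation, was dim, at 81.3 and 97.0 in ERbeta2 MO, 41.5 and 54.2 in coMO and 43.6 and 58.3 in uninjected embryos (0.72 and 0.66), again without overlap.

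lhx1a and lhx5 encode LIM-homeodomain proteins of interneurons and, for lhx1a, of the embryonic kidney. One lhx1a probe set read 776 and 1212 in ERbeta2 MO, 414 and 381 in coMO and 457 and 383 in uninjected embryos (log2 1.25 and 1.18). The other read 887 and 693, 377 and 350, and 361 and 247 (1.08 and 1.35). The ERbeta2 MO replicates differed in opposite ways in the 2 probe sets, and both stayed above all controls. lhx5 read 815 and 999 in ERbeta2 MO, 545 and 572 in coMO and 426 and 500 in uninjected embryos (0.68 and 0.94). pou3f1, named pou50 in the tables and a POU-domain gene of the nervous system, read 1544 and 1619, 940 and 763, and 867 and 726 (0.89 and 0.98). These neural genes were higher in the same arrays in which 4 of 5 probe sets of neuronal markers were lower and that of elavl3 was higher. A link between these genes and the markers was not tested.

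**Figure D3:**
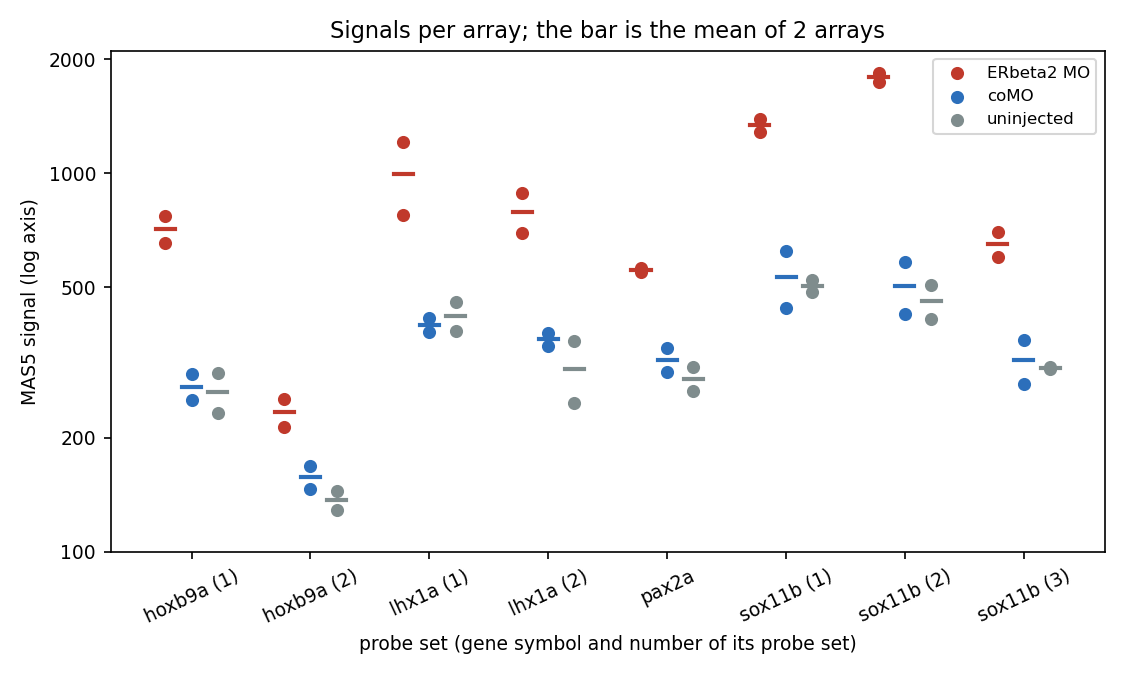
Each point is the MAS5 signal of 1 array, on a log axis, for the genes with several probe sets (hoxb9a, lhx1a and sox11b) and for pax2a, and each bar is the mean of 2 arrays. In every one of the 8 probe sets, which were listed for their folds, both ERbeta2 MO points lie above all 4 control points. The same holds for 37.2% of all probe sets tested. The lhx1a replicates are the widest, at 776 and 1212.

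The 3 pax genes did not share a direction: pax2a and pax5 had higher signals and pax6b lower ones. pax2a, which is needed for the boundary of midbrain and hindbrain, the optic stalk and the kidney, read 547 and 562 in ERbeta2 MO, 298 and 345 in coMO and 307 and 265 in uninjected embryos. Its group means were 555 ± 10.9, 321 ± 33.3 and 286 ± 29.9 (SD, n = 2 each), log2 differences of 0.76 and 0.92. The authors' deposited tables give pax2a folds of 2.396 over coMO and 2.708 over uninjected embryos, larger than the ratios of the mean signals, 1.73 and 1.94. pax5, a close relative with a role at the same boundary, was dim and varied between the controls: 106 and 81.6 in ERbeta2 MO, 22.9 and 8.20 in coMO and 44.7 and 57.5 in uninjected embryos. Its log2 difference was therefore 1.83 against coMO and 0.71 against uninjected, and with signals near the offset of 16 the first depends on that offset.

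pax6b, a gene of the eye, the brain and the endocrine pancreas, was the member with the largest difference downward. It read 21.3 and 6.78 in ERbeta2 MO, 123 and 150 in coMO and 113 and 118 in uninjected embryos, so its ERbeta2 MO signals lay near the offset of 16, 1 above and 1 below it. The log2 differences were -2.38 and -2.17, and their size rests on the offset. The photoreceptor and exocrine pancreas markers were lower in the same arrays, with the summed signals given above. The marker lists held no gene for the endocrine pancreas, and a link of pax6b with these markers was not tested.

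Of the nkx genes, nkx2.1, of ventral forebrain and thyroid, read 96.7 and 136 in ERbeta2 MO, 68.2 and 43.5 in coMO and 39.4 and 87.9 in uninjected embryos (log2 0.88 and 0.78). The lower ERbeta2 MO array was only slightly above the second uninjected array, and the difference against uninjected became 0.33 without the first uninjected array and 1.24 without the second. nkx3-2, the bapx1 gene of the jaw joint, read 676 and 568, 289 and 341, and 289 and 417 (0.95 and 0.81). irx1b, an Iroquois homeobox gene, read 418 and 366 in ERbeta2 MO, 266 and 242 in coMO and 236 and 278 in uninjected embryos (0.60 and 0.58), without overlap.

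The msx genes, of dorsal neural tube, neural crest and fin fold, were higher by similar amounts, 0.77 to 0.99 against coMO and 0.91 to 1.13 against uninjected embryos. msx1b read 554 and 511 in ERbeta2 MO, 250 and 272 in coMO and 269 and 204 in uninjected embryos (log2 0.99 and 1.13). msx2b read 385 and 375, 165 and 265, and 189 and 202 (0.81 and 0.91), and without the first coMO array its difference against coMO became 0.49. msx3 read 857 and 860, 448 and 554, and 562 and 334 (0.77 and 0.96), and without the second uninjected array the latter became 0.60. In all 3 genes the ERbeta2 MO replicates lay closer together than the widest pair of controls.

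Of the 5 forkhead genes 4 were higher and 1 lower. foxd3, which specifies neural crest, read 1247 and 1216 in ERbeta2 MO, 594 and 511 in coMO and 669 and 678 in uninjected embryos (log2 1.14 and 0.86). foxk2a, whose probe set has only a clone name in the tables, had the largest difference of the family, with 2334 and 2215, 891 and 820, and 919 and 967 (1.39 and 1.26). foxa2, of floor plate and endoderm, read 380 and 329, 270 and 259, and 214 and 174 (0.40 and 0.82), so that the coMO arrays lay between the other groups. foxd5 was dim, with 71.2 and 93.4, 57.2 and 64.9, and 56.8 and 41.9 (0.34 and 0.59), and its difference against coMO was 0.18 without the second ERbeta2 MO array. foxo3a, a FOXO factor that acts downstream of insulin signalling, had lower signals: 187 and 178 in ERbeta2 MO, 462 and 378 in coMO and 356 and 425 in uninjected embryos (-1.13 and -1.03).

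gata1a, the regulator of red blood cell formation, was below the filter, at 95.9 and 88.9 in ERbeta2 MO, 56.3 and 34.7 in coMO and 59.8 and 43.1 in uninjected embryos (log2 0.84 and 0.69). Both ERbeta2 MO arrays lay above all controls, in the arrays in which the 5 red blood cell markers were higher as well. gatad2ab, of another protein family, read 491 and 369, 204 and 237, and 167 and 217. Its log2 difference was 0.91 against coMO and its ratio of mean signals 2.24 over uninjected.

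All 3 Krüppel-like factor genes had lower signals in ERbeta2 MO embryos. klf2a, a zinc finger gene that responds to blood flow in vessel walls, read 236 and 231 in ERbeta2 MO, 712 and 552 in coMO and 582 and 565 in uninjected embryos (log2 -1.37 and -1.24). Its paralogue klf2b read 296 and 498, 708 and 939, and 1109 and 992 (-1.06 and -1.41), and against coMO it stood at -0.69 without the first ERbeta2 MO array. klf11a, which the tables describe by its likeness to a growth factor-induced early response protein, read 788 and 724 in ERbeta2 MO, 1556 and 1565 in coMO and 2344 and 1387 in uninjected embryos (-1.03 and -1.24). For all 3 both ERbeta2 MO arrays were below every control array, as for 32.4% of all probe sets tested. The 3 genes were listed for their folds between these groups, so nothing is read from this count. Ordered by start in the RefSeq table, klf11a lies near sox11b, with 10 protein-coding genes between them, and their differences had opposite signs.

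The size of the lower signals of the klf genes and foxo3a depended on the scaling, most on that by the poly-A spikes. Scaled on the hybridization controls, the differences against coMO were -0.67 for foxo3a, -0.92 for klf2a, -0.60 for klf2b and -0.58 for klf11a. The poly-A spikes, RNAs added before labelling, averaged 6.61 and 6.88 on the log2 scale on the ERbeta2 MO arrays and 7.23 to 7.83 on the others. Scaled on them, the probe sets tested had a median difference that went from 0.05 to 0.98 against coMO and from 0.05 to 0.69 against uninjected embryos. The differences against coMO then became -0.19 for foxo3a, -0.43 for klf2a, -0.12 for klf2b and -0.10 for klf11a, below that median. With this scaling limma called none of the 4 lower than in coMO, and 388 of all 9301 probe sets tested. Against uninjected embryos it called klf2b alone of the 4, and 582 of the 9301. Since the tables that chose the members hold the same contrasts, nothing is read from these calls. Each of the 40 members kept its sign under median centring, quantile normalization and both spike scalings in both comparisons. The enzyme gene TBXAS1, 34.9 and 32.6 in ERbeta2 MO, 110 and 107 in coMO and 163 and 116 in uninjected embryos, was the last of the 6 with lower signals (log2 -1.32 and -1.63).

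**Figure D4:**
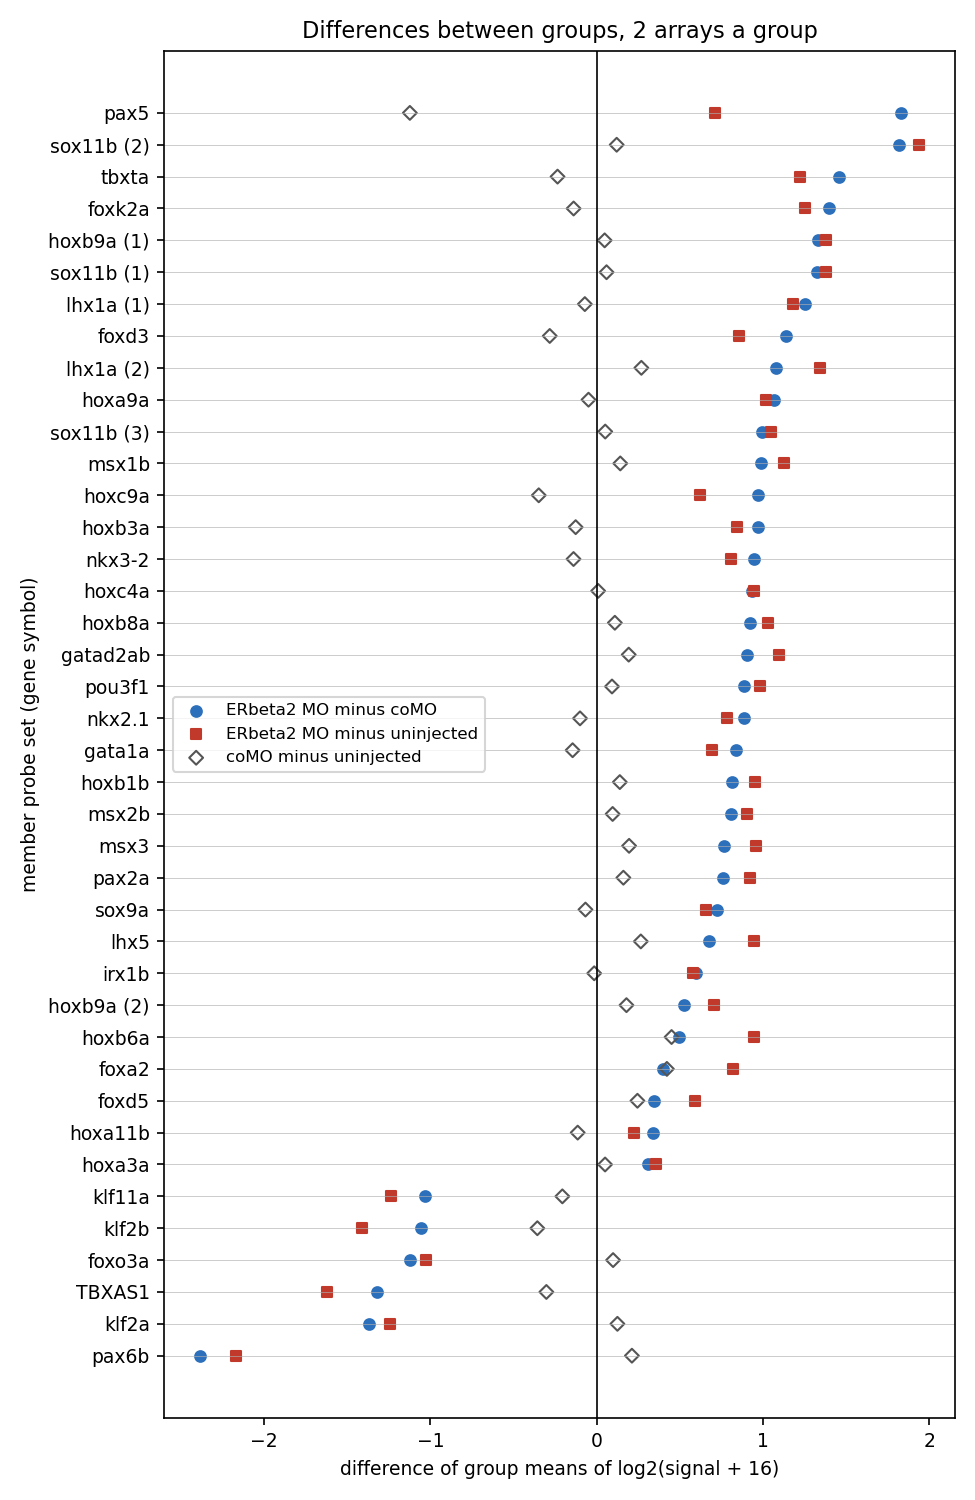
Each row is 1 member probe set; the x axis is the difference of group means of log2(signal + 16) for ERbeta2 MO minus coMO (circles), ERbeta2 MO minus uninjected (squares) and coMO minus uninjected (open diamonds), 2 arrays a group. Circles and squares share the ERbeta2 MO arrays and lie on the same side of 0 in every row, and all diamonds but that of pax5 lie within 0.5 of 0.

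The comparison of coMO with uninjected embryos asks what injection of a control morpholino did to the same genes. No member entered by the table of this comparison, which lists 21 probe sets, so it is the contrast that the choice of members used least, although the control arrays also enter the folds that chose them. limma called 0 of the 30 tested members at an adjusted p of 0.05, against a background of 0.505% (47 of 9301 probe sets). Without a trend in the spread it again called 0, and of all 9301 probe sets only 6 higher and 5 lower. Below an unadjusted p of 0.05 lay 1 member, foxa2 (limma adjusted p = 0.546, log2 difference 0.42), and 7.88% of all probe sets tested. The differences of the 40 members had a median of 0.05 on the log2 scale and 23 were above 0. Only pax5 of the 40, a probe set below the filter, differed by 0.5 or more (-1.12). The differences of the 30 tested members ranged from -0.36 to 0.42, and 2.78% of all probe sets tested differed by 0.5 or more. The 95% confidence intervals of the 30 tested members, not adjusted for their number, extended 0.28 to 0.45 on the log2 scale to either side of the estimate, and all but that of foxa2 (0.04 to 0.80) held 0.

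The folds in the authors' deposited tables were not the ratios of the deposited signals. The 2 measures had the same direction for 33 of 33 members listed against coMO and 36 of 36 listed against uninjected embryos. They differed by over 1.5 times for 7 and 5 of them. For msx2b the authors' deposited table gives a fold of 3.346 over coMO where the mean signals gave 1.77, and for hoxa11b 2.063 where they gave 1.32. The 7 include pax5 and pax6b, whose ratios over coMO rest on signals near background and carry no reliable size. By the ratio of mean signals 14 of the 33 and 17 of the 36 were under the 2-fold limit that their listing implies.

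**Figure D5:**
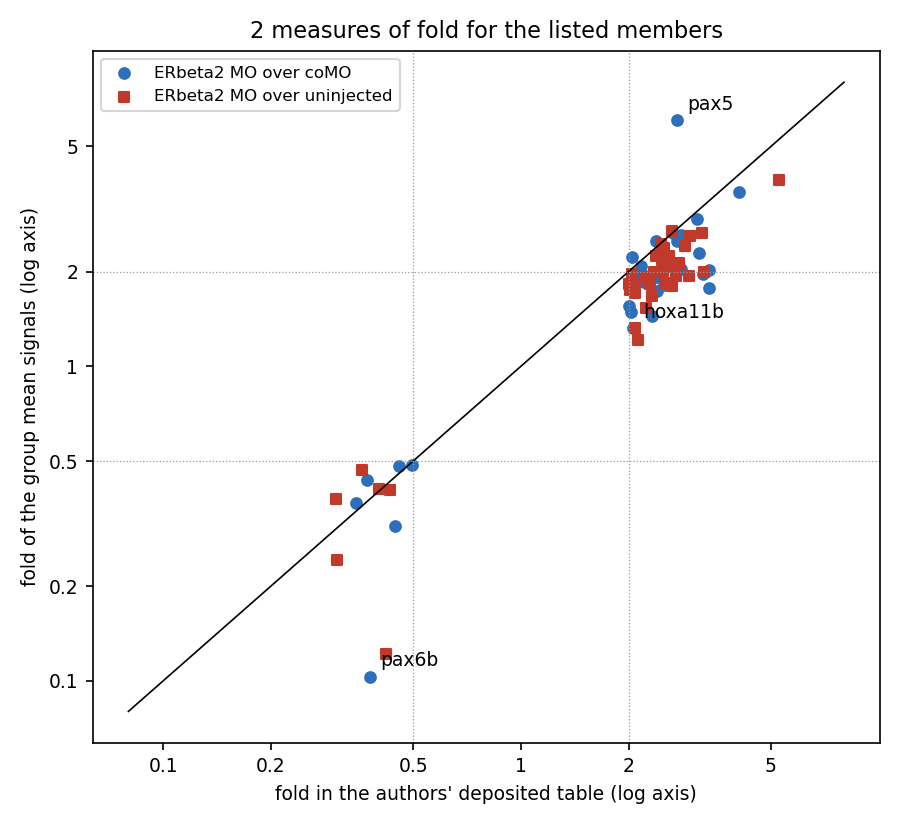
For each listed member the x axis is the fold in the authors' deposited table and the y axis the ratio of the group mean signals, both on log axes; the solid line marks equality and the dotted lines folds of 0.5 and 2. All points lie in the quadrants of equal direction; pax6b and pax5, each with a group of signals near background, are farthest from the line, and many points with an authors' fold above 2 lie below 2 on the y axis.

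At the limit of the rule the members just inside were foxa2, with a fold of 2.005 over uninjected embryos in the authors' deposited table, irx1b, with 2.013 over coMO, and klf11a, with 0.496 over coMO. Folds inside the limit are not listed, so no value just outside can be set beside them. Of the 40 members 29 were in both ERbeta2 MO tables, 4 in that against coMO alone and 7 in that against uninjected embryos alone. In the comparison that did not list them those 11 had ratios of mean signals from 1.27 (hoxa3a) to 2.17 (lhx1a), so that absence from a table did not always go with a ratio below 2.

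Other genes of the same patterning systems were taken from the listed probe sets with 1 gene, by symbol lists drawn up for this purpose, and so were selected on the same folds. Of homeobox genes outside the member families 13 were named and 10 passed the filter, and limma called 7 higher and 3 lower than in coMO embryos, where 29.5% and 26.8% of all probe sets tested were called. The motor and sensory neuron gene isl2b (log2 1.91) and the homeobox repressor tgif1 (1.66) led the higher ones, and dmbx1a (-1.12) and gsc (-1.08) the lower ones. Of 16 probe sets of patterning signals and their targets 14 passed the filter and 9 were called higher and 4 lower. The hedgehog ligand shha stood at 1.29 and the hedgehog-binding protein gene hhip at 1.35, while both probe sets of spry2, an inhibitor of growth factor signalling, stood at -1.60 and -1.46. Of 14 other patterning transcription factors 9 passed the filter, with 7 called higher, led by nr2f6a (1.32) and nr2f5 (0.99), and 2 lower, runx2a (-1.11), of bone formation, and egr1 (-0.76). The medians of the 3 lists against coMO were 1.18, 0.67 and 0.57, over all their named probe sets. None of the genes that partner the member families (pbx, pknox, eya, dach, ldb, lmo, tle, zfpm and sall) was named alone by a listed probe set. The 219 listed probe sets with several genes were not searched for them. Between coMO and uninjected embryos limma called 0 members of these lists, against the background of 0.505%.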

How the data were processed

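Total RNA of whole embryos was measured on 6 Affymetrix arrays. The intensities analysed are those of the deposited value table; per the submitters' processing notes they come from MAS5, and no version of it is named in the labels. The 3 comparison tables give a fold as deposited by the authors, with no account of its computation. Of their identifiers 1 had no row in the value table. Symbols were updated by GeneID for 39 members and kept as written for 1, without regard to case. Sequences were not used here. 2 listed probe sets with such symbols are not reported here.

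From the intensities log2(signal + 16) was taken. The 115 control probe sets and the dimmest 40% of the others were removed and 9301 remained for limma 3.58.1 (R 4.3.3; lmFit, eBayes with a trend, Benjamini-Hochberg), fitted to the 3 groups together without a replicate block. With 3 residual degrees of freedom p-values rest on pooled spread, and the number of arrays limits the precision. The fit was tested on simulated data with independent noise and few changed probe sets. In these data 56.2% of the probe sets tested were called against coMO, so nothing is concluded from that simulation. The RefSeq table of the GRCz12tu assembly gave names and gene order only.

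The members, the lists and the rule for named genes (in each family the largest increase and decrease, pax2a, genes with several probe sets and the members nearest the limit) were chosen with earlier results of these data known. Values of all 40 members are given, beyond that rule. Other offsets, filters, scalings, fits of 2 groups, a replicate block, no trend and leaving out each array were tried.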

Additional observations from a re-analysis of the deposited data

How the results depend on the processing

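Every member kept its sign in both ERbeta2 MO comparisons under all settings tried, except hoxa11b against uninjected embryos without the second ERbeta2 MO array. The median log2 difference of the 40 members against coMO, 0.86, was 0.71 with an offset of 64, 1.02 with median centring, 1.31 with the hybridization controls and 1.80 with the poly-A spikes. That against uninjected embryos, 0.88, was 0.95 with an offset of 1, 0.77 with an offset of 64, and 1.01, 1.25 and 1.52 with the 3 scalings. All probe sets tested shifted with these scalings too, to medians of 0.21, 0.50 and 0.98 against coMO. The control comparison had member medians of -0.03 with the hybridization controls and -0.24 with the poly-A spikes. The count of members called lower, 4 in each comparison, was 0 against coMO and 1 against uninjected embryos with the poly-A spikes, where calls of lower signal over all 9301 probe sets tested went from 2491 to 388 and from 2468 to 582. With the dimmest 60% left out fewer members were tested, and 16 of 19 were called higher in each ERbeta2 MO comparison. Of all 6201 probe sets then tested 2149 were called higher against coMO and 2198 against uninjected embryos. Leaving out 1 array at a time gave medians of 0.80 to 0.88 against coMO and 0.85 to 0.88 against uninjected embryos. The control comparison then had medians of 0.00 to 0.08. These fits leave 1 array in a group, so their calls are not counted here. The calls of irx1b, hoxc9a, msx2b and the dimmer hoxb9a probe set were lost in some of them. With the replicate block 24 members were called higher and 4 lower against coMO (median 0.86), and 2832 and 2566 of all 9301 probe sets tested. Against uninjected embryos 25 and 4 members were called (median 0.88), and 2940 and 2557 of the 9301. In the control comparison 0 members were called (median 0.05), and 51 of the 9301 higher and 41 lower. Since the members were chosen by the same ERbeta2 MO contrasts, nothing is read from their calls in these. Deviations of same-numbered arrays correlated at 0.0156, 0.0134 and 0.118 over probe sets. With 2 arrays a group these values cannot settle whether the numbers pair the arrays, and the labels do not say.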

Other observations

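5 listed probe sets name a gene of these families together with another gene, so that their signal cannot be given to 1 gene. All 5 had both ERbeta2 MO arrays above all 4 control arrays, and like the members they were listed for their folds. The same held for 37.2% of all probe sets tested, to which the dim NKX2-8 probe set does not belong. The probe set of foxn4, a forkhead gene of retinal progenitors, and a second locus read 664 and 714 in ERbeta2 MO, 216 and 241 in coMO and 193 and 226 in uninjected embryos (log2 differences of 1.53 and 1.65). That of sox3, a gene of neural progenitors, and a second locus read 2252 and 2398 in ERbeta2 MO, 1196 and 1222 in coMO and 1338 and 1027 in uninjected embryos (0.93 and 0.98). That of zic2b, of dorsal neural tube, and a second locus read 421 and 292 in ERbeta2 MO, 169 and 157 in coMO and 150 and 155 in uninjected embryos (1.04 and 1.13). The probe set shared by pou1 and pou23, as the tables name them, read 745 and 772 in ERbeta2 MO, 425 and 410 in coMO and 373 and 319 in uninjected embryos (0.84 against coMO). The fifth, which the tables assign to NKX2-8 and 2 other loci, was dim, at 55.6 and 59.4 in ERbeta2 MO against 1.18 to 19.8 in the controls, so no size is given.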
